A study of Rattus norvegicus with 8 samples.

Results

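The genes described here encode the subunits of the oxidative phosphorylation complexes that are made from nuclear DNA, together with cytochrome c. They were chosen by symbol: every non-control probe whose transcript accession belonged to a gene named Nduf (with a, b, s, v or c and a number), Sdha to Sdhd, Uqcr, Cox4 to Cox8, Atp5, Cycs or Cyc1. The rule found 99 probes of 79 genes among 30367 probes. Of these genes, 78 had a probe above the detection limit and were tested, among 21420 genes or unnamed transcripts. The symbols follow the rule and not a biochemical definition, so a few members are not subunits in the strict sense, and these are named where they are described.

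Total RNA from the kidney of male SD rats (Sprague-Dawley, an outbred laboratory strain), 10 weeks old, was hybridised to 8 single-colour Agilent arrays. The Control group of 4 samples had received the vehicle 0.5% methylcellulose for 4 weeks. The APL group of 4 samples had received APL at 150 mg/kg for 4 weeks. APL is read here as allopurinol, an inhibitor of xanthine oxidase, the agent that the series title names for its rat model of renal fibrosis. The question put to the arrays was how kidney transcripts of treated and vehicle rats differ. The title speaks of renal tubules and the tissue label of kidney, and nothing in the labels says whether each replicate was an animal of its own, so p-values measure the spread between these samples, which may be technical.

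Oxidative phosphorylation takes place in the inner mitochondrial membrane. Complex I oxidises NADH and complex II oxidises succinate. Both pass electrons through ubiquinone to complex III, then through the mobile carrier cytochrome c to complex IV, which reduces oxygen. Complexes I, III and IV pump protons, and complex V, the ATP synthase, uses the returning protons to make ATP. Proximal tubule cells and thick ascending limb cells of the kidney are rich in mitochondria and rely on this pathway for the energy of solute transport.

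The number of arrays limits the precision of every value. The APL arrays were brighter, with a 75th percentile of 455 ± 53.04 against 291 ± 18.04 for Control (processed signal, SD, n = 4 each, exact two-sided permutation p = 0.0286, the smallest that this design allows). Each signal was divided by the 75th percentile of its own array, and the result is called the relative signal. It shows how a gene stands among the other probes of the same array. It cannot tell a smaller amount of a transcript from a larger amount of other RNA. Log2 fold changes are APL over Control, with the moderated standard error from limma after ±. Each of 2 slides held 2 arrays of each group. Markers of kidney cell types were present on the arrays, with summed relative signals given further on.

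Most members were lower in the APL kidneys. Of 78 genes, 64 (82.1%) were called lower and 1 (1.28%) was called higher at an adjusted p under 0.05 in limma, where 11.5% of all genes tested were called lower, 11.9% higher and 23.5% in either direction. The higher one, Cox6a2, met the detection filter only through its APL arrays. The log2 fold change was negative for 76 members. Its median was -0.95 over the members, on slide 1 -1.08 and on slide 2 -0.84, against -0.03 over all genes. The decrease reached 1 or more on the log2 scale for 37 called members, as it did for 8.78% of all genes. The 4 APL values lay wholly below the 4 Control values for 70 members and wholly above for 0, against 15.9% and 14% of all genes (29.9% in either direction). On each APL array by itself, 74, 72, 71 and 73 members of replicates 1 to 4 lay below all Control arrays. In bulk tissue fewer cells of a type and less RNA per cell cannot be told apart, and this holds for every level given here.

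The calls leaned on the scaling between arrays. Without it, 14 members were called lower and 3 higher, the members' median was -0.31 and the median of all genes was 0.61. The distance of the members from all genes was -0.92 in both settings. It could hardly differ, because dropping a factor per array shifts all log2 fold changes above the floor alike. Among the alternatives run, this distance ranged from -1.48 (background corrected with normexp, same scaling) to -0.68 (quantile normalization of the processed signal). With no scaling, 1143 of all genes were called lower and 5886 higher, which made the lower ones 16.3% of the calls against 49.2% with the scaling. The 14 members were Cycs, Sdha, Sdhc, Sdhd, Uqcrfs1, Atp5f1b, Atp5f1c, Ndufs1, Ndufs7, Ndufv3, Ndufa4, Ndufa10, Ndufa10l1 and Ndufb9, and the same 14 were called lower under every setting run. The 3 higher ones were Cox6a2, Cox7a2l and Uqcrq. With the scaling, 42 of the 64 lower members kept their call whichever array was left out.

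**Figure D1:**
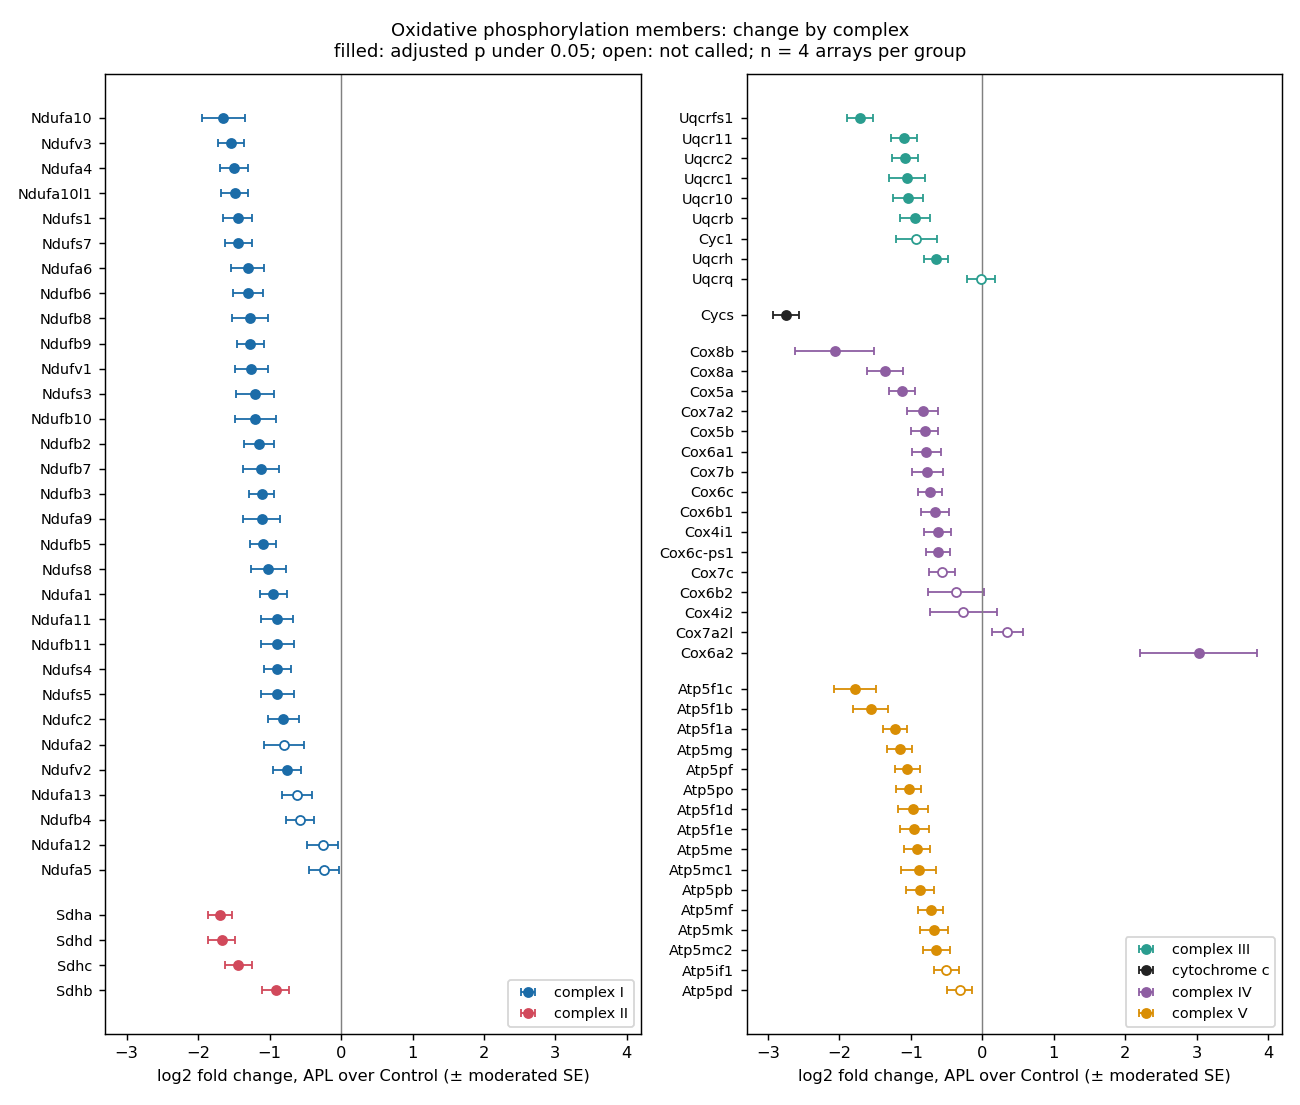
Log2 fold change of APL over Control (horizontal axis, ± moderated standard error, n = 4 arrays per group) for 77 of the 78 members, ordered within complexes I to V and cytochrome c. Filled points passed an adjusted p under 0.05 and open points did not: the filled points lie left of 0 except for Cox6a2, which lies at 3.03.

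Because the members moved together, their promoters are shown for orientation. The stretch from 250 bases before to 50 bases after the annotated start was found for 67 of the 78 members in a RefSeq table of the rat assembly GRCr8. It was searched on both strands for 5 motifs of factors known to act at nuclear genes for mitochondrial proteins. These were GCATGCGC (nuclear respiratory factor 1, NRF1), CCGGAAGT (GABPA), AAGATGGC (YY1), TGACGTCA (the cAMP response element) and AAGGTCA (estrogen-related receptors), and none of them holds another. NRF1's motif stood in 9 of the 67 promoters (13.4%, against 2.47% of all 33469 promoters) and GABPA's in 8 (11.9% against 3.81%). YY1's motif stood in 13 (19.4% against 3.17%), the cAMP response element in 4 (5.97% against 1.83%) and the estrogen-related receptor motif in 9 (13.4% against 4.61%). Among the 21851 promoters of protein-coding genes the shares of the 5 motifs, in the same order, were 3.11%, 4.77%, 3.67%, 2.1% and 3.78%. At least 1 motif was found in 31 of the 67 member promoters. Among members called lower, 9 of 56 promoters held NRF1's motif, and among those not called 0 of 10 did, too few to compare. The 250 bases before the start are printed below for Cycs, for 1 member called lower of each complex, and for Uqcrq, the member of complex III whose groups differed least. The member of a complex was 1 of those with the most kinds of motif, the larger decrease deciding between equals, and none on chromosome 18 was taken. Capitals mark the motifs on either strand that lie wholly before the start, and all are written on the strand of the gene.
Cycs, cytochrome c, chr4:80984768-80985017, minus strand: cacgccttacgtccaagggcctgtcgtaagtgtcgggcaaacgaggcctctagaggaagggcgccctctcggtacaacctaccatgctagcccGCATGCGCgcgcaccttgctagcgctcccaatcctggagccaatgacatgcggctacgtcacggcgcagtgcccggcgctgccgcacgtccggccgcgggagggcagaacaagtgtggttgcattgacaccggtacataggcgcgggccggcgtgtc
Ndufa6, complex I, chr7:115750318-115750567, minus strand: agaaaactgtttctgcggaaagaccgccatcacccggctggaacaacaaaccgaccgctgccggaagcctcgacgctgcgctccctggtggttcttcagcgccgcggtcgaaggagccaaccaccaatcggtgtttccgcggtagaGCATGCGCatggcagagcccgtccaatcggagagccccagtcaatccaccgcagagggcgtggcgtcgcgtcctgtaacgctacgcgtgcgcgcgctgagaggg
Sdhb, complex II, chr5:158547684-158547933, plus strand: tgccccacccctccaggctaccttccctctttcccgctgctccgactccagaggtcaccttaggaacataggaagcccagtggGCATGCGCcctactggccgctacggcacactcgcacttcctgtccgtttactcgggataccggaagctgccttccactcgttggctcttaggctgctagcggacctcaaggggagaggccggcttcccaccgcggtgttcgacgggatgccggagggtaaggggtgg
Uqcrc1, complex III, chr8:118467973-118468222, plus strand: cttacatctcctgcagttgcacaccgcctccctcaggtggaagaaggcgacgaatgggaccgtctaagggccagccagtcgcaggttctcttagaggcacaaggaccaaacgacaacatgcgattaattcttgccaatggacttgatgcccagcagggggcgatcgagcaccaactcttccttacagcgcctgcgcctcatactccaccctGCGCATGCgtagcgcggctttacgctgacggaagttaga
Cox8a, complex IV, chr1:213833624-213833873, minus strand: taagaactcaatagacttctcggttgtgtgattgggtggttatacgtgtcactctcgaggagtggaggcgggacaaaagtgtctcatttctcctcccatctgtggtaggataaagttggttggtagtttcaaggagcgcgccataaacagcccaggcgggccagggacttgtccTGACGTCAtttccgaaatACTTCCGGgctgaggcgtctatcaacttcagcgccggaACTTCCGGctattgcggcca
Atp5mg, complex V, chr8:54130408-54130657, minus strand: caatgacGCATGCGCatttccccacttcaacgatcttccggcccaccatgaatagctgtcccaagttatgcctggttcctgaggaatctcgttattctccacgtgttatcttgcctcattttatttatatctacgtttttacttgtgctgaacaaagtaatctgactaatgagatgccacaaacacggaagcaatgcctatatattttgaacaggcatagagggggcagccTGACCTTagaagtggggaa
Uqcrq, complex III, not called, chr10:38089979-38090228, minus strand: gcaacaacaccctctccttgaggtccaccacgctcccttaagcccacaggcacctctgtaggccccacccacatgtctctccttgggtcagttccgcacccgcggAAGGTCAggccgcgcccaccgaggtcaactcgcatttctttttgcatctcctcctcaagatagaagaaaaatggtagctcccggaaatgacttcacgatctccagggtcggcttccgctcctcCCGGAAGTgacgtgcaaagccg
In Cycs the NRF1 motif begins 157 bases before the start and in Sdhb 167 bases before it. Cox8a holds the cAMP response element 76 bases before the start and the GABPA motif 58 and 20 bases before it. Uqcrq, which was not called, also holds the GABPA motif, 22 bases before the start, and the estrogen-related receptor motif, 145 bases before it. A match describes the letters only and is neither a tested binding site nor a cause.

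Cytochrome c had the largest decrease of all members. Cycs encodes the small haem protein that carries electrons from complex III to complex IV and that starts apoptosis when it leaves the mitochondrion. Its relative signal was 53.1, 54.6, 44.8 and 50.3 in Control replicates 1 to 4 and 6.52, 7.40, 8.72 and 7.70 in APL replicates 1 to 4. Every APL value lay far below every Control value. Cycs fell by 2.75 ± 0.18 on the log2 scale (adjusted p = 5.62e-05), or 6.7-fold, by 2.96 on slide 1 and by 2.54 on slide 2. Its other probe also gave a decrease, -2.94. Within each APL array Cycs stood 1.66 to 1.89 log2 units further below its Control mean than the median member did, a distance that does not depend on the factor by which an array is scaled.

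**Figure D2:**
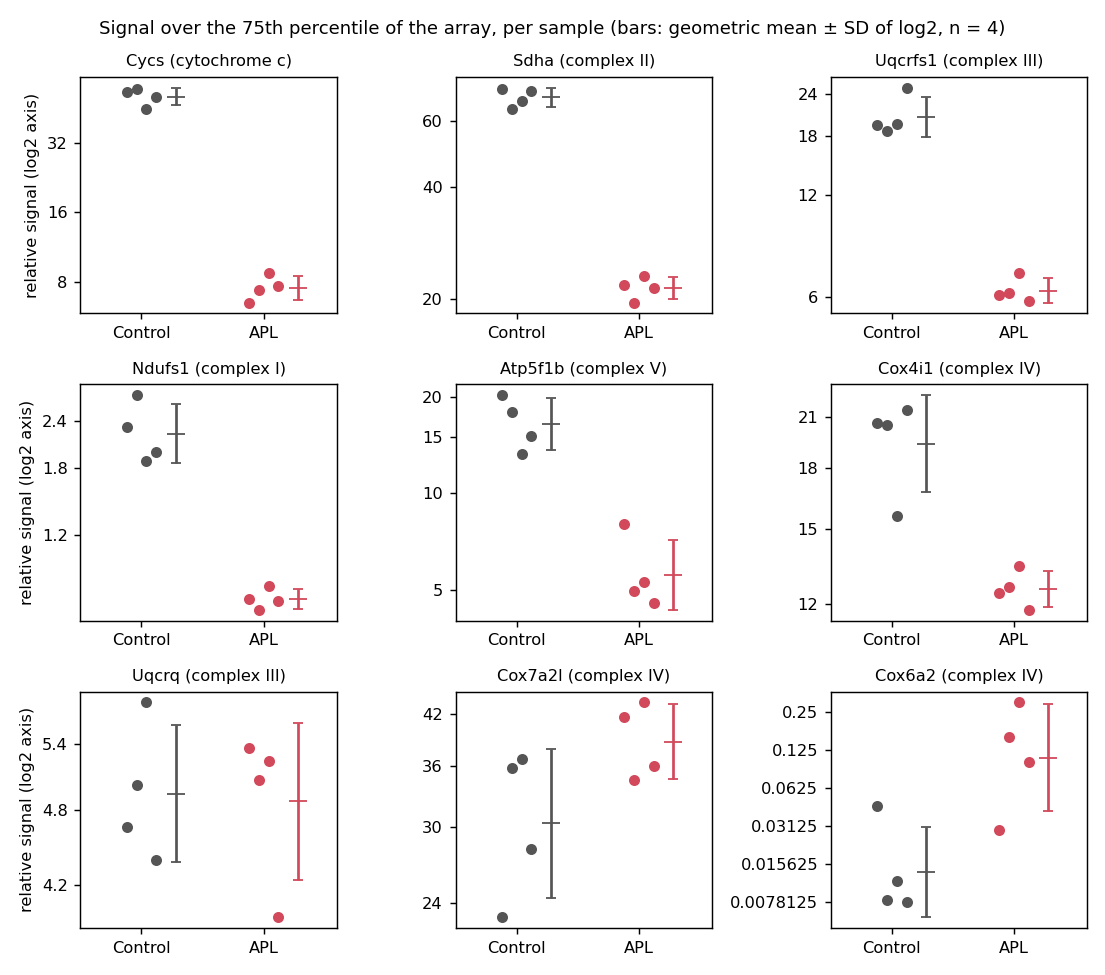
Relative signal (processed signal over the 75th percentile of the array, log2 axis whose range differs between panels) on each of the 8 arrays for 9 members, with the geometric mean and the SD of the log2 values beside the 4 points of each group. The groups are apart for Cycs, Sdha, Uqcrfs1, Ndufs1, Atp5f1b and Cox4i1, and overlap for Uqcrq, Cox7a2l and Cox6a2.

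Complex I, the largest complex, fell almost throughout. Of 32 members 27 were called lower and 0 higher, with a median of -1.11 (-1.21 on slide 1 and -1.03 on slide 2) and a range of -1.65 to -0.24. The groups did not overlap for 29 of them. The 7 nuclear core subunits, which hold the flavin and the iron-sulphur clusters and are shared with bacteria, were all called lower, with a median of -1.20. Among the other 25, 20 were called lower, with a median of -1.11.

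Ndufs1, the iron-sulphur subunit of the NADH-oxidising arm, had relative signals of 2.32, 2.81, 1.89 and 1.99 in Control and 0.815, 0.762, 0.880 and 0.806 in APL, so that the highest APL array lay well under the lowest Control array. It fell by 1.45 ± 0.20 (adjusted p = 0.00162). Ndufs7, which carries the last iron-sulphur cluster before ubiquinone, had 3.49, 3.62, 4.91 and 3.98 in Control against 1.35, 1.58, 1.46 and 1.46 in APL and fell by 1.44 ± 0.19 (adjusted p = 0.00133). Its groups were as clearly apart. Ndufv1, the flavin subunit where NADH is oxidised, had 20.3, 23.4, 25.9 and 22.2 in Control against 7.21, 9.02, 13.4 and 9.65 in APL, and fell by 1.26 ± 0.23 (adjusted p = 0.00718). Ndufs3 and Ndufs8, subunits of the arm that leads electrons to ubiquinone, fell by 1.20 ± 0.26 and 1.02 ± 0.24. Ndufv2, the smaller flavoprotein subunit, had the smallest decrease of the 7, 0.76 ± 0.20 (adjusted p = 0.0306). The call of Ndufv2 was lost when Control replicate 1, 3 or 4 or APL replicate 1, 2 or 3 was left out (adjusted p up to 0.0762). That of Ndufs8 was lost when Control replicate 1 or 2 or APL replicate 2 was (adjusted p up to 0.0516).

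Outside the core, Ndufa10, an accessory subunit of the matrix-facing side, had the largest decrease, 1.65 ± 0.30 (adjusted p = 0.00643). Its Control values were close together, at 4.49, 4.64, 4.67 and 4.73, while its APL values were spread, at 0.92, 1.61, 2.44 and 1.32. Ndufa10l1 is a near copy of Ndufa10 and fell by 1.49 ± 0.19, and whether the probes of the 2 genes share signal is uncertain. Ndufv3, a small accessory subunit of the flavoprotein part, fell by 1.54 ± 0.18 (adjusted p = 0.000818). Of its 3 probes, tested each by itself, the others gave -1.71 (adjusted p = 0.000711) and -0.39 (adjusted p = 0.614), the latter not called. Ndufa4, named for complex I but now placed with complex IV, had 109, 122, 115 and 108 in Control against 30.9, 40.9, 44.6 and 46.7 in APL. It fell by 1.496 ± 0.20 (adjusted p = 0.00145), with no overlap between the groups. Ndufa4l2, its hypoxia-linked relative, was not matched to a probe and is not analysed here.

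The 5 members of complex I that were not called are all accessory subunits. Ndufa13, also known as a cell death regulator, had a log2 fold change of -0.61 ± 0.21 (adjusted p = 0.0733), and Ndufb4, of the membrane arm, -0.58 ± 0.20 (adjusted p = 0.0688). The groups of these 2 did not overlap. Ndufa2, a small subunit with a thioredoxin-like fold, stood at -0.80 ± 0.29 (adjusted p = 0.0809). Its values were 37.7, 29.3, 21.9 and 26.4 in Control and 10.9, 17.3, 16.01 and 23.1 in APL, where APL replicate 4 lay above Control replicate 3. By slide it stood at -1.28 (slide 1) and -0.32 (slide 2). Ndufa12 and Ndufa5 had the smallest log2 fold changes of the complex, -0.26 ± 0.22 (adjusted p = 0.420) and -0.24 ± 0.21 (adjusted p = 0.441). Their groups overlapped, with Ndufa12 at 16.3 to 17.9 in Control and 10.4 to 17.2 in APL, and Ndufa5 at 24.8 to 37.4 in Control and 24.3 to 28.2 in APL.

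Complex II, succinate dehydrogenase, also belongs to the citric acid cycle, and it had the lowest median of the complexes, -1.55 (-1.48 on slide 1 and -1.57 on slide 2). All 4 of its members were called lower, with no overlap between the groups. Sdha, the flavoprotein that oxidises succinate, had relative signals of 73.1, 64.5, 67.9 and 72.2 in Control and 21.8, 19.6, 23.0 and 21.4 in APL. The spread within each group was small against the gap between them, and Sdha fell by 1.70 ± 0.17 (adjusted p = 0.000361). Sdhd and Sdhc, the membrane anchors that bind ubiquinone, fell by 1.67 ± 0.19 and 1.44 ± 0.19 (adjusted p = 0.000648 and 0.00156). Sdhd had 16.8, 17.6, 16.4 and 15.1 in Control and 5.45, 4.17, 5.90 and 5.36 in APL. Sdhb, the iron-sulphur subunit that links them, fell less, by 0.92 ± 0.19 (adjusted p = 0.0112), with 27.97, 31.0, 37.4 and 30.7 in Control and 15.1, 15.7, 19.4 and 17.0 in APL. The standard errors of these 4 genes were alike, 0.17 to 0.19. No call was lost with an array left out, and Sdhb was at -0.28 (adjusted p = 0.343) without scaling.

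In complex III all members but Cyc1 and Uqcrq were called lower. Of 9 members 7 were called lower, with a median of -1.04 (-1.09 on slide 1 and -0.85 on slide 2) and a range of -1.71 to -0.02, and the groups did not overlap for 8. Uqcrfs1, the Rieske iron-sulphur protein, which takes the electrons from ubiquinol, had relative signals of 19.4, 18.6, 19.5 and 25.1 in Control and 6.08, 6.16, 7.06 and 5.82 in APL. It fell by 1.71 ± 0.19 (adjusted p = 0.000557), and the groups were far apart. The structural core proteins Uqcrc1 and Uqcrc2 fell by 1.06 ± 0.26 (adjusted p = 0.0223) and 1.08 ± 0.18 (adjusted p = 0.00466). Uqcr11, a small accessory subunit, fell by 1.1 ± 0.19. Leaving out Control replicate 1, 2 or 3 or APL replicate 2 or 3 ended the call of Uqcrc1 (adjusted p up to 0.0565). Uqcrh, the hinge protein between cytochrome c1 and cytochrome c, fell by 0.65 ± 0.17 (adjusted p = 0.0290) and lost its call with any 1 array left out (adjusted p up to 0.0714).

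Cyc1, cytochrome c1, hands the electrons to cytochrome c. It was at 12.8, 13.1, 13.8 and 15.8 in Control and 4.28, 7.36, 9.60 and 9.23 in APL. The groups did not overlap, APL replicate 1 lay furthest down, and the log2 fold change of -0.93 ± 0.29 stood just outside the threshold (adjusted p = 0.0505). Under the other settings with all 8 arrays its adjusted p ran from 0.0248 to 0.502. Uqcrq, a small ubiquinone-binding protein, stood apart from its complex with 4.66, 5.02, 5.81 and 4.39 in Control and 5.36, 5.06, 5.24 and 3.97 in APL. The groups overlapped, at a log2 fold change of -0.02 ± 0.20 (adjusted p = 0.950) that turned to 0.62 (adjusted p = 0.0445) without scaling. A test of the difference between Uqcrq and the other members was not made.

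Complex IV, cytochrome c oxidase, had the smallest median, -0.70 (-0.81 on slide 1 and -0.64 on slide 2). Of 16 members tested, 11 were called lower and 1 higher, over a range of -2.07 to 3.03, and the groups did not overlap for 12. A further member, Cox8c, was not well above background on any array and was not tested. With any 1 array left out 3 to 7 members were called lower, and without scaling 0 were, at a median of -0.06. Without the tissue isoforms Cox4i2, Cox6a2, Cox6b2 and Cox8b, 10 of 12 members were called lower, Cox6c-ps1 included, with a median of -0.75.

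Cox4i1, the ubiquitous form of the regulatory subunit IV, had relative signals of 20.6, 20.5, 15.6 and 21.4 in Control and 12.4, 12.6, 13.4 and 11.8 in APL. The groups did not overlap, though Control replicate 3 lay between the rest of its group and the APL arrays. Cox4i1 fell by 0.63 ± 0.19 (adjusted p = 0.0435), and the value turned to 0.01 without scaling. It kept its call with Control replicate 3 left out and lost it with any other array left out (adjusted p up to 0.0990). Cox5a, a subunit at the matrix side, fell by 1.12 ± 0.19 (adjusted p = 0.00419). Its values were 15.0, 16.2, 17.1 and 19.1 in Control and 6.81, 7.22, 8.98 and 7.97 in APL. Cox5b, the zinc-binding subunit, fell by 0.81 ± 0.19 (adjusted p = 0.0195), a call lost without Control replicate 2 or APL replicate 2 (adjusted p up to 0.0522). Cox8a, the ubiquitous form of the smallest subunit, fell by 1.36 ± 0.25 (adjusted p = 0.00687), with 55.8, 61.3, 79.0 and 71.7 in Control and 18.1, 26.2, 35.1 and 26.6 in APL. Together with Cox5a and Cox6c it kept its call whichever array was left out. Cox6a1, Cox6b1 and Cox7a2, the broadly expressed forms of their subunits, fell by 0.78 ± 0.20, 0.66 ± 0.19 and 0.83 ± 0.22. The calls of Cox6a1 and Cox7a2 were lost with 6 of the 8 arrays left out in turn and that of Cox6b1 with any of the 8 (adjusted p up to 0.0894). Cox6c-ps1 is by its symbol a pseudogene, a transcribed near copy of Cox6c that may share its signal. It is not a subunit in the strict sense but is counted with complex IV by the rule. It was called lower by 0.62 ± 0.17, a call lost with any 1 array left out (adjusted p up to 0.0827), and stood at 0.02 without scaling.

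The tissue isoforms went different ways at low signal. Cox6a2, the heart and muscle form of subunit VIa, was the member called higher, at 3.03 ± 0.82 (adjusted p = 0.0322). Detection differed, with 1 Control array and all 4 APL arrays well above background. Its relative signals were 0.0448, 0.00809, 0.0114 and 0.00774 in Control and 0.0291, 0.160, 0.299 and 0.101 in APL, so that APL replicate 1 lay below Control replicate 1 and the groups overlapped. The value was 1.84 on slide 1 and 4.21 on slide 2. The call was lost without Control replicate 2, 3 or 4 or APL replicate 2, 3 or 4 (adjusted p up to 0.0807), and with the floor at 0.02 the value was 2.15. Cox8b, the heart and muscle form of subunit VIII, had 0.225, 0.0713, 0.0495 and 0.264 in Control and 0.0221, 0.0320, 0.0307 and 0.0313 in APL. It was lower by 2.07 ± 0.55 (adjusted p = 0.0310), and turned to 0.03 (adjusted p = 0.982) when the background was corrected with normexp before the same scaling. Its call was also lost without Control replicate 1 or 4 or any APL array (adjusted p up to 0.0737). Cox4i2, the form of subunit IV known from lung and linked to hypoxia, was at -0.27 ± 0.47 (adjusted p = 0.707), and Cox6b2, the testis form of subunit VIb, at -0.37 ± 0.39 (adjusted p = 0.525). Both had overlapping groups. Cox7a1, the muscle partner of Cox7a2, was not matched to a probe and is not analysed here.

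The broadly expressed members of complex IV that were not called are Cox7c and Cox7a2l. Cox7c, a small subunit, was at -0.57 ± 0.18 (adjusted p = 0.0580), with groups that did not overlap. Cox7a2l, a factor that joins complex III and complex IV into supercomplexes and is not a subunit in the strict sense, was at 23.0, 35.8, 36.7 and 28.2 in Control and 41.6, 34.5, 43.5 and 36 in APL. The groups overlapped, and its log2 fold change of 0.35 ± 0.22 (adjusted p = 0.286) was, with that of Cox6a2, the only positive value among the members. It was 0.99 (adjusted p = 0.0148) without scaling.

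Complex V, the ATP synthase, was lower in all of its parts. Of 16 members 14 were called lower and 0 higher, the groups did not overlap for any of the 16, and the median was -0.93 (-1.02 on slide 1 and -0.82 on slide 2), with a range of -1.79 to -0.32. The 5 subunits of the catalytic head and central stalk were all called lower, with a median of -1.23. Of the 4 of the peripheral stalk 3 were called lower, with a median of -0.95, and all 6 of the membrane part were, with a median of -0.81. The calls of the membrane part leaned on single arrays: 2 were left without APL replicate 1, 3 without APL replicate 2 or 3 or Control replicate 2, 3 or 4, 4 without Control replicate 1 and 5 without APL replicate 4. The counts of the head and of the peripheral stalk stayed at 5 and 3 with each array left out in turn.

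Atp5f1c, the gamma subunit that turns inside the head, fell by 1.79 ± 0.29 (adjusted p = 0.00409). Its relative signals were 8.90, 8.89, 4.203 and 8.52 in Control and 2.43, 2.26, 1.71 and 2.13 in APL. Control replicate 3 lay far below the other Control arrays but above every APL array. Atp5f1b, the catalytic beta subunit, had 20.3, 17.9, 13.3 and 15.1 in Control and 8.03, 4.96, 5.28 and 4.55 in APL, and fell by 1.56 ± 0.25 (adjusted p = 0.00361). Atp5f1a, the alpha subunit that alternates with beta in the head, had 78.8, 81.1, 77.9 and 82.1 in Control and 30.5, 32.9, 37.8 and 36 in APL, and fell by 1.23 ± 0.17 (adjusted p = 0.00173). The members with the smallest values were Atp5if1 and Atp5pd. Atp5if1, the inhibitor that keeps the enzyme from running backwards, is a regulator and not a subunit, and was at -0.50 ± 0.17 (adjusted p = 0.0712). Atp5pd, the d subunit of the peripheral stalk, was at -0.32 ± 0.17 (adjusted p = 0.214), with 33.5 to 34.9 in Control and 23.4 to 29.3 in APL. Neither was called, although the groups did not overlap in either.

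Between the complexes the order of the medians was complex II, I, III, V and IV from the lowest to the least low, and the ranges of their members overlapped widely, so the order describes these genes and was not tested. For the ends of the series, the values that gave the order are given array by array and are no separate support for it. Each gene was set against its Control mean. The median of complex II then lay below that of complex IV by 0.49, 0.96, 0.88 and 0.91 log2 units on APL replicates 1 to 4. On the Control arrays, which lie near 0 through this step, the same distance ran from -0.08 to 0.09. Complex I lay 0.26 to 0.40 below complex IV on the 4 APL arrays. Complexes I and III were within 0.14 of each other on every APL array. These distances are taken within an array and do not depend on the factor by which an array is scaled.

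**Figure D3:**
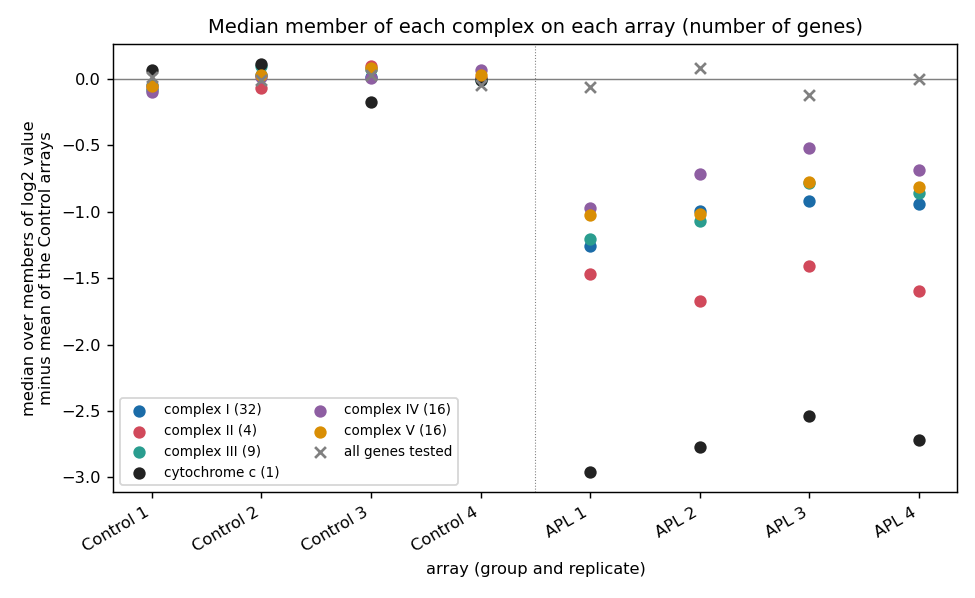
Median over the members of each complex (number of genes in the legend) of the log2 value on each of the 8 arrays minus the gene's mean over the Control arrays. On every APL array cytochrome c lies lowest and complex II next, complex IV lies highest of the complexes, and all genes tested (crosses) stay near 0.

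The members were measured more closely than most genes, with a median SD within a group of 0.20 log2 units against 0.54 for all genes. Their probes are bright: 59 of the 78 lie in the top decile of probes by mean signal, which is no measure of one transcript's amount against another's. In that decile 468 of 2142 genes (21.8%) were called lower and 347 (16.2%) higher, with a median of -0.14. Of the 59 members there, 49 were called lower. Several probes were kept for 17 of the member genes, and no probe of these went the opposite way to the probe used. Tested each by itself, 76 of the 98 member probes were called lower and 1 higher.

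**Figure D4:**
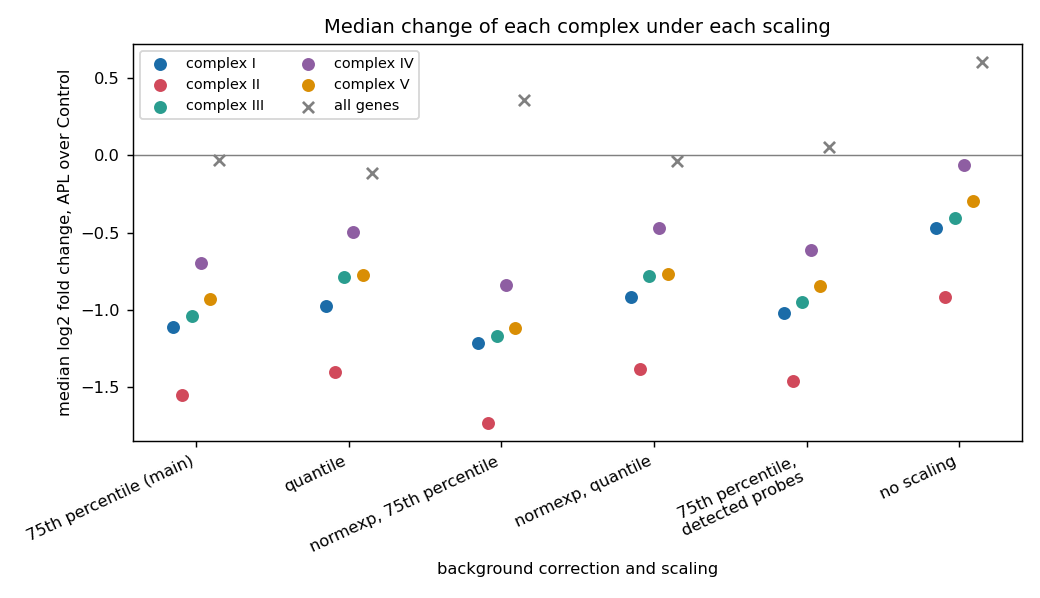
Median log2 fold change of each complex and of all genes tested (crosses) under 6 combinations of background correction and scaling. Complex II has the lowest median and complex IV the highest of the 5 complexes in all 6, and without scaling the whole picture lies higher, with all genes at 0.61 and complex IV at -0.06.

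Genes that serve the complexes without being part of them were taken from lists. Of 43 assembly factors, which insert cofactors and put subunits together, 9 (20.9%) were called lower and 0 higher, with a median of -0.49. Of all genes tested 11.5% were called lower and 11.9% higher. Bcs1l, which places the Rieske protein into complex III, fell by 2.16 ± 0.48 (adjusted p = 0.0154). Its signal was low, at 0.15 to 0.33 in Control and 0.023 to 0.091 in APL, which limits this value. Cox15, which makes the haem of complex IV, fell by 1.497 ± 0.40 (adjusted p = 0.0318). Of 24 regulators of mitochondrial biogenesis and mitochondrial DNA expression, 1 (4.17%) was called lower and 0 higher, with a median of -0.36. Their median standard error was 0.39, against 0.20 for the members and 0.36 for all genes. The lower gene was Tfb2m, a mitochondrial transcription factor, which fell by 1.45 ± 0.39 (adjusted p = 0.0310). The coactivator Ppargc1a was at -0.24 ± 0.39 (adjusted p = 0.677), the transcription factor Nrf1 at -0.43 ± 0.37 (adjusted p = 0.432), Esrra at -0.27 ± 0.19 (adjusted p = 0.336) and Tfam, which packs mitochondrial DNA, at 0.47 ± 0.34 (adjusted p = 0.351). None of these 4 values passed the threshold.

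The citric acid cycle, which feeds electrons to complexes I and II, was mostly called lower. Of 17 genes, pyruvate dehydrogenase included, 13 (76.5%) were called lower and 0 higher, with a median of -1.22. The shares of all genes were 11.5% and 11.9%. Pdhb, a pyruvate dehydrogenase subunit, fell by 1.84 ± 0.24 (adjusted p = 0.00125), while Cs, citrate synthase, was at 0.12 ± 0.29 (adjusted p = 0.798). Of 27 genes of mitochondrial import and carriers, 10 (37%) were called lower and 0 higher, with a median of -0.63. Slc25a5, which exchanges ADP for ATP, fell by 1.86 ± 0.17 (adjusted p = 0.000279), and Vdac1, the outer membrane channel, by 1.39 ± 0.19 (adjusted p = 0.00163). Glycolysis was mixed, with 7 of 24 genes (29.2%) called lower, 5 (20.8%) higher and a median of -0.45. The summed relative signal of the 24 genes was 371 to 432 on the Control arrays and lower, 259 to 301, on the APL arrays. Pklr, the pyruvate kinase form of liver and proximal tubule, fell by 2.24 ± 0.32 (adjusted p = 0.00223). Pfkp, a phosphofructokinase, rose by 2.98 ± 0.36 (adjusted p = 0.000918), Ldhb, a lactate dehydrogenase, by 1.43 ± 0.20 (adjusted p = 0.00200), and Slc16a3, a lactate exporter, by 2.20 ± 0.52 (adjusted p = 0.02003). Without scaling the medians of assembly factors, import and glycolysis turned to 0.15, 0.01 and 0.19. That of the biogenesis regulators also turned positive, while that of the citric acid cycle stayed negative.

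**Figure D5:**
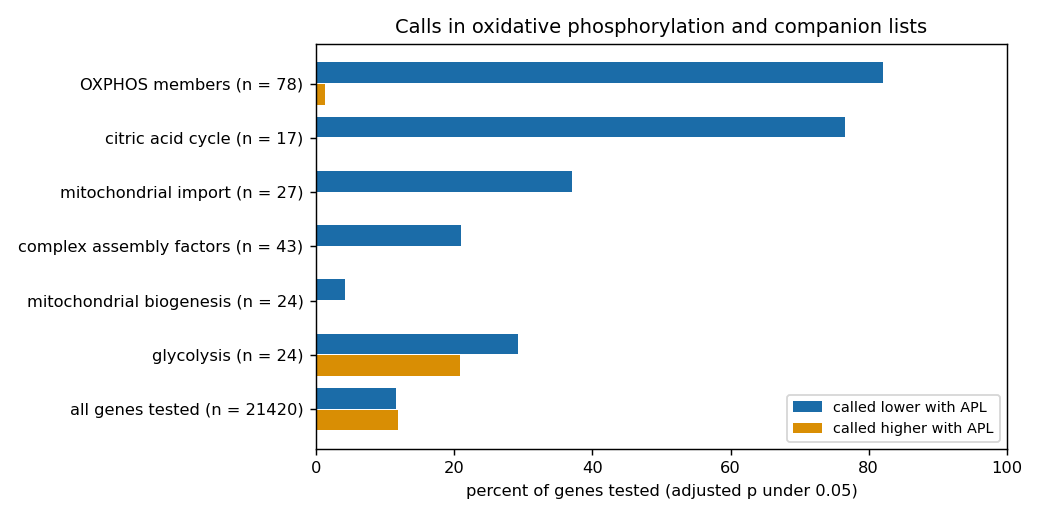
Share of the genes tested (horizontal axis, percent) that were called lower or higher with APL at an adjusted p under 0.05, for the members, 5 companion lists and all 21420 genes. The members and the citric acid cycle have the longest bars for lower genes, 82.1% and 76.5%, and glycolysis is the list with a bar for higher genes of 20.8%.

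Some markers of kidney cell types were lower together with the members, and others were not. The summed relative signal of 7 proximal tubule markers was 384 to 454 on the Control arrays and 39.0 to 47.3 on the APL arrays. Of these genes 5 were called lower and 1 higher, with a median of -2.68, where 11.5% of all genes were called lower and 11.9% higher. Slc34a1, the sodium-phosphate cotransporter, fell by 4.53 ± 0.39, and Slc5a2, a glucose transporter, rose by 3.04 ± 0.66. The sum of 5 markers of the thick ascending limb and distal tubule was 42.2 to 57.9 in Control and 2.96 to 20.4 in APL (2 lower, 0 higher), and that of 4 endothelial markers 3.46 to 6.62 and 0.338 to 0.614 (3 lower, 0 higher). The sum of 4 podocyte markers was 1.83 to 3.04 in Control and 0.586 to 0.985 in APL (1 lower). In the other direction, 6 fibroblast markers summed to 14.3 to 17.7 in Control and 29.6 to 91.6 in APL (1 lower, 2 higher). The sums overlapped between the groups for 6 collecting duct markers, at 3.04 to 11.0 and 5.04 to 22.4 (1 higher), for 5 macrophage markers, at 16.3 to 21.1 and 16.04 to 26.1 (2 higher), and for 3 lymphocyte markers, at 0.418 to 1.15 and 0.570 to 1.84 (0 called). The part of these shifts in the lower level of the members was not tested.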

How the data were processed

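Total RNA of 8 kidney samples was labelled with Cy3, 1 array per sample, per the labels' protocols (a DNA labelling kit is named). The deposited scanner files hold linear intensity values: the processed signal, background already removed by Feature Extraction 10.5.1.1 per the file headers, and spot and background signals. A further deposited table holds the authors' log2 values. Against the scanner values (r = 0.9992 to 0.9997 per array) it is log2 of the processed signal over the 75th percentile, centred per probe, and it served as an alternative.

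Non-uniform spots (2 to 64 per array) were left out, and spots of a probe averaged. Processed signals over the array's 75th percentile were floored at 0.005 and log2-transformed. Probes well above background on at least 4 of 8 arrays were kept (24343 of 30367), and no probe was saturated. Symbols came from a RefSeq table of GRCr8 by accession (18643 probes with a symbol, 11724 without). The probe with the highest mean stood for a gene. Groups were compared with limma 3.58.1 (lmFit, eBayes; R 4.3.3), two-sided, adjusted by Benjamini-Hochberg over all 21420 genes or unnamed transcripts. Scripts were tested on simulated data.

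The members, the companion lists and the alternatives were chosen with earlier results of these data known. Named by rule were the core subunits of each complex, the 2 largest decreases and the 2 smallest changes per complex, members called higher or not called, and tissue isoforms. Companion genes were named as examples after their values were seen.

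Mitochondrially encoded subunits were not analysed here, and some genes that are counted are not reported by name here. Alternatives were other background corrections, scalings, floors, detection filters and probe choices, each probe by itself, slide or replicate number as a block, the authors' table, and each array left out.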

Additional observations from a re-analysis of the deposited data

Results flagged for a closer look

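For each member and group, the highest and the lowest of the 4 relative signals were compared with the nearest of the others by Dixon's ratio. Of 156 groups of 4 arrays, 9 exceeded its 95% critical value, and chance flags about 1 in 20 groups. In Control replicate 3, Atp5f1c was low at 4.203 (the other Control arrays 8.52 to 8.90), Cox4i1 was low at 15.6 (20.5 to 21.4) and Cox6c-ps1 was high at 11.2 (10.2 to 10.3). In Control replicate 1, Atp5mk was low at 62.0 (74.96 to 77.7) and Ndufa6 was low at 5.74 (7.45 to 7.67). In Control replicate 4, Uqcrfs1 was high at 25.1 (18.6 to 19.5). In APL replicate 1, Cox8b was low at 0.0221 (0.0307 to 0.0320), Ndufb7 was low at 5.48 (9.40 to 10.02) and Ndufb8 was low at 2.44 (3.42 to 3.66). Apart from Cox8b, Cox4i1, Cox6c-ps1 and Atp5mk, these members kept their call with each array left out in turn.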

How the results depend on the processing

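The members' median stayed negative under every alternative run, and 61 of the 64 members called lower had a negative value in all of them. The cause of the changes below was not tested. Without scaling between arrays, 14 members were called lower and 3 higher at a median of -0.31, and 1143 of all genes were called lower and 5886 higher at a median of 0.61. The counts called lower were then 7 in complex I, 1 in complex III, 0 in complex IV and 2 in complex V, and the medians of complexes I to V were -0.47, -0.92, -0.40, -0.06 (-0.0625) and -0.30. Cox4i1 turned to 0.01 (0.0108), Cox6c-ps1 to 0.02 (0.0223) and Uqcrq to 0.62. With normexp and the 75th percentile, 37 members were called lower and 0 higher at a median of -1.12, against 973 and 1040 of all genes at a median of 0.36. There 4 members of complex III, 2 of complex IV and 7 of complex V were called lower, the medians of complexes II and V were -1.74 and -1.12, and Cox8b turned to 0.03 (0.025). With normexp and quantile normalization 0 members were higher, the members' median was -0.77 and the medians of complexes I to V were -0.92, -1.38, -0.78, -0.47 and -0.77. With quantile normalization of the processed signal the medians of complexes II to V were -1.40, -0.79, -0.50 and -0.78 (-0.775). There 6 members of complex IV and 14.1% of all genes were called lower. The 75th percentile over detected probes gave 7 lower in complex IV, against 9.83% of all genes. No member was called higher with the floor at 0.02, without a detection filter, or with detection on all 8 arrays, where Cox6a2 was not tested (0 in each). With 1 array left out, 47 to 54 members were called lower and 0 to 1 higher, and 3 to 7 of complex IV were called lower. Of all genes 1777 to 2019 were then called lower and 1609 to 2205 higher. Leaving out population outlier spots, chosen after seeing the data, gave 64 members lower and 1 higher, against 2472 and 2558 of all genes. With the slide as a block 61 members were lower and 1 higher, against 2333 and 2431 of all genes. With each probe tested by itself 76 of 98 member probes were lower and 1 higher, and the counts over all probes in that fit are not given here.

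Whether the replicate numbers pair the samples cannot be settled with 4 arrays per group. Same-numbered arrays correlated at -0.02 to 0.05 in their deviations from the group means, and other pairs at -0.08 to 0.09. Of the Control arrays 2 of 4 were closest to the APL array of their own number. With the replicate number as a block, 38 members were called lower and 0 higher, 2 in complex IV and 8 in complex V, against 1616 lower and 1644 higher of all genes. Signal over background limits Cox6a2, Cox8b and Cox8c.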
